A study of Mus musculus with 25 samples.

Results

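The Slc2a genes encode the facilitative sugar carriers of the Glut family, and 8 of them (Slc2a1, Slc2a3, Slc2a4, Slc2a6, Slc2a8, Slc2a10, Slc2a12 and Slc2a13) were followed by name, whatever their values, among the 12 Slc2a genes listed and the 45706 and 44674 genes of a pair of mouse RNA-seq tables. The remaining 4 (Slc2a2, Slc2a5, Slc2a7 and Slc2a9) are given by their counts. The first table held 16 libraries of hypothalamus from mice of genotype Slco1c1Cre+/-;ROSA26lSlL10aGFP+/-, aged 12 weeks, in which tamoxifen switches on Cre under the Slco1c1 promoter and Cre switches on a GFP-tagged ribosomal protein. All 16 libraries shared that genotype and were taken after tamoxifen, 3 weeks before the diet began, so that no untagged mice serve as a control for the precipitation. Feeding lasted 3 days, on the control diet, CD, or the high-fat one, HFD, and each of 4 pools per diet joined 4 mice, 2 female and 2 male. The whole lysate (INPUT) and the RNA pulled down with the tagged ribosomes (IP, the bacTRAP method) were sequenced, both numbered 1 to 4, and the labels do not say that equal numbers are the same pool, so ratios of IP to INPUT by number assume it. The second table held 9 libraries of cEND, an established mouse brain endothelial line, given the vehicle DMSO or WZB117, described by the study as an inhibitor of Glut1, the product of Slc2a1, at 0.5 or 10 µM. Each cEND treatment was sequenced once at passages 12, 14 and 18 of this 1 line, so no p-value there measures a spread between animals. Dose comparisons without a passage term take their error from the spread between passages, and those with one, like the comparisons of passages, from the spread left between libraries within a passage. The study asked whether short high-fat feeding changes barrier endothelial transcripts, and whether blocking Glut1 in cultured cells does.

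Glut proteins let sugars cross membranes down their gradient, without energy input. At the blood-brain barrier Glut1 carries glucose out of blood across endothelium, astrocytes also make Glut1, and neurons rely largely on Glut3, the product of Slc2a3. Glut4, from Slc2a4, is the insulin-responsive carrier of muscle and fat, while the Slc2a13 product, Hmit, is a proton-coupled carrier of myo-inositol found mainly in brain. Glut8, Glut10 and Glut12, from Slc2a8, Slc2a10 and Slc2a12, and Glut6, from Slc2a6, are less studied members, of which Glut8 and Glut6 sit largely on inner membranes.

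A pair of members were called at the higher WZB117 dose in at least 1 model below, Slc2a1 and Slc2a8, and sequence at their start sites is shown here to be read beside that result. The Slc2a1 stretch runs 20 bases past the gene's annotated start, and the marked ACGTG spans that start. Sequences are from RefSeq on GRCm38.p6, 5′ to 3′ on the gene's strand, with capitals marking ACGTG or GCGTG on either strand (so CACGT and CACGC also count), the core letters that hypoxia-inducible factors bind.
Slc2a1, plus strand, chr4:119108495-119108730: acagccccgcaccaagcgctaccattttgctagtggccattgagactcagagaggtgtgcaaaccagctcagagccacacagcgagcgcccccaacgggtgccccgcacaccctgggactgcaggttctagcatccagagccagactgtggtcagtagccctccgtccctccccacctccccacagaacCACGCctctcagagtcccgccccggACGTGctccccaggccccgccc
Slc2a8, minus strand, chr2:32982084-32982333: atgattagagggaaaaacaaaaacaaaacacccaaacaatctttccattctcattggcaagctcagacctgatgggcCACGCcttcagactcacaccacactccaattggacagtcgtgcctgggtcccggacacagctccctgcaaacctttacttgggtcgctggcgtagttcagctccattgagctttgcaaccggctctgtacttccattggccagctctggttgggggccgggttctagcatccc
RefSeq windows of 300 bases around the start were at hand for 6 of the 8 members. Slc2a1 held 1 ACGTG and 1 GCGTG, Slc2a8 held 1 GCGTG, Slc2a6 held 4 GCGTG, Slc2a10 held 1 ACGTG, and Slc2a12 and Slc2a13 held neither. At least 1 of these letter runs stood in 43.8 percent of all 32851 RefSeq windows of that length, with ACGTG in 19.6 percent and GCGTG in 32.4 percent, so their presence sets no member apart.

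Hypothalamic libraries held 27.9 to 42.8 M counts each (M, mega) and cEND libraries 27.3 to 41.3 M. Ribosomal RNA and mitochondrial features took 30.2 to 37.6 percent of INPUT counts and 2.83 to 3.53 percent of IP counts. The labels call the tagged cells endothelial, and marker genes were set against that label. All 18 endothelial marker genes were higher in IP than in INPUT, but their summed level was only 197 to 297 CPM (counts per M of library total, after TMM scaling) in CD IP, against 43.1 to 54.8 in CD INPUT. All 10 astrocyte markers were higher too, and summed to 19200 to 22000 CPM in CD IP against 2490 to 3150 in CD INPUT, led by Slc1a2, the main astrocyte glutamate carrier. Sums of neuronal, oligodendrocyte, microglial, and pericyte and smooth muscle markers were lower in every IP library than in any INPUT library. Tanycyte and ependymal sums were higher in IP, at 59.6 to 67.4 CPM in CD IP against 28.3 to 30.7 in CD INPUT. So were choroid plexus sums, at 123 to 186 against 45.2 to 52.1 CPM. Of their tested genes, 7 of 8 and 3 of 7 were called higher, and 0 and 2 lower, where 41.6 percent of all genes were called higher. The IP libraries are therefore called by their fraction and not by a cell type, since astrocyte transcripts were the most abundant of the enriched marker sets. In cEND cells the endothelial sum was 6290 to 8640 CPM, led by Pecam1, while the barrier lipid carrier Mfsd2a had a mean of only 0.208 CPM with DMSO. Astrocyte markers summed to 151 to 185 CPM there, and Gjb6 was at 0 in all 9 libraries.

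Glut1 transcript dominated the family on tagged ribosomes. Levels were compared per kilobase of merged exon, so that genes of different length can be set side by side. Merged exons take in every annotated transcript, whether or not it is used in these cells. Slc2a1 made up 35.8 ± 2.94 percent of the 8-member sum for CD INPUT but 79.9 ± 1.62 percent for CD IP (SD, n = 4 pools). In CD INPUT the order of levels per kilobase was Slc2a1 with 8.77 CPM per kb, Slc2a13 with 7.62 and Slc2a3 with 5.74, and the libraries of these 3 genes did not overlap. That order rests on the merged exon lengths. In mean CPM not divided by length, Slc2a1 was the lowest of the 3, with 30.7 against 63.7 for Slc2a13 and 41.6 for Slc2a3. All other members were far below, from Slc2a8 with 0.778 to Slc2a4 with 0.0903 CPM per kb. Within that lower group Slc2a8 overlapped with Slc2a6, Slc2a6 with Slc2a12, and Slc2a10 with Slc2a4. In CD IP, Slc2a1 stood at 38.9 CPM per kb, 18.3 times the next member. Slc2a3 (2.12 CPM per kb) and Slc2a13 (2.05) were not separated by their spread, nor were Slc2a12 (1.69), Slc2a10 (1.45) and Slc2a8 (1.32) as neighbours in that order. Slc2a4 (0.797) and Slc2a6 (0.312) came last. Most family RNA of the whole tissue was thus split among 3 genes, 1 of them the myo-inositol carrier gene, and that of the IP fraction was mostly of 1.

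**Figure D1:**
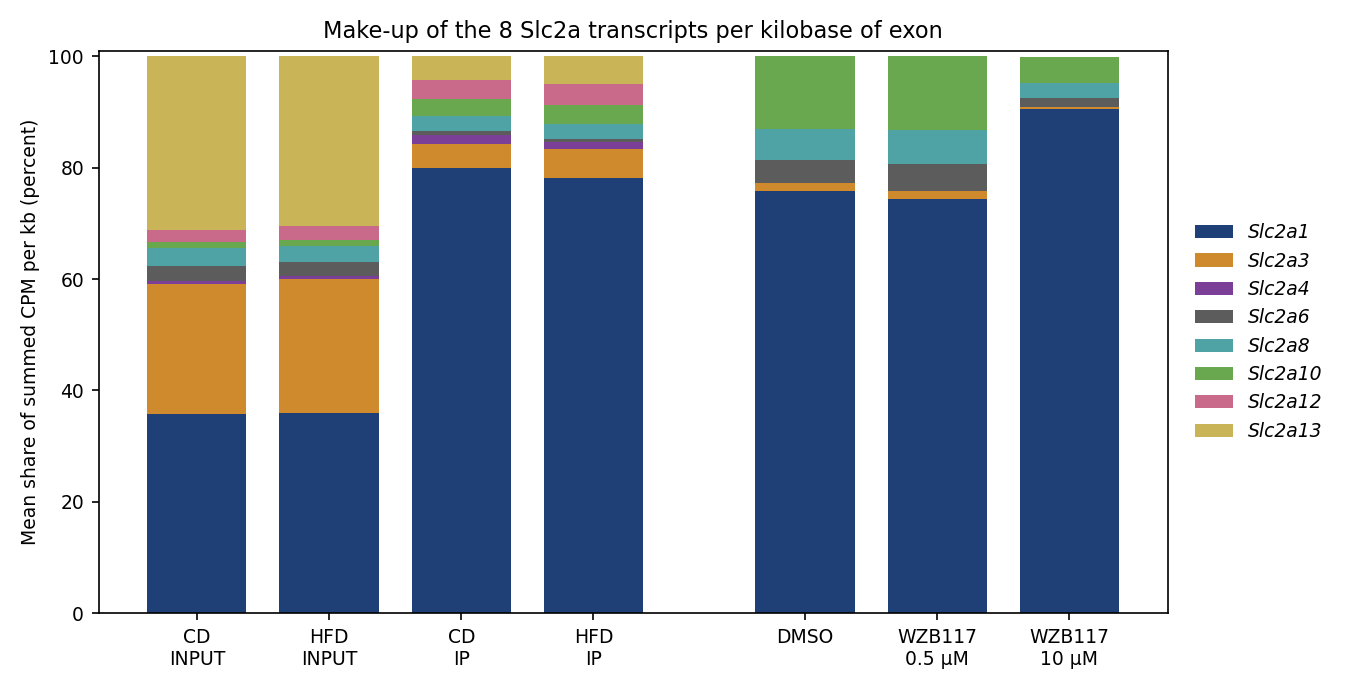
Stacked bars give the mean percentage (y axis) of the summed CPM per kilobase of exon that each of the 8 Slc2a members took in each of 7 groups (x axis); hypothalamic and cEND tables were normalised separately. Slc2a1 took 35.8 percent with CD INPUT, 79.9 percent with CD IP, 75.8 percent in cEND cells with DMSO and 90.5 percent with 10 µM WZB117.

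The comparison of IP with INPUT shows which carrier transcripts tagged ribosomes held. Of the 8 members, 5 were higher in IP (Slc2a1, Slc2a4, Slc2a8, Slc2a10 and Slc2a12) and 3 were lower (Slc2a3, Slc2a6 and Slc2a13). Over all 17592 genes tested, 41.6 percent were called higher and 42.1 percent lower, so being called in this contrast is the common state and does not set a member apart. The median log2 fold change was 1.04 over the 8 members and -0.018 over all genes tested. Tests are edgeR's quasi-likelihood test with Benjamini-Hochberg adjustment over all genes, at an adjusted p of at most 0.05. In such bulk RNA, fewer cells of a type and less RNA per cell cannot be told apart.

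Slc2a1 (ENSMUSG00000028645, GRCm38 chromosome 4, 119108711 to 119137983) had 28.3, 30.1, 34.8 and 29.7 CPM in CD INPUT pools 1 to 4 and 124, 149, 125 and 148 in CD IP. With HFD it had 35.5, 30.5, 26.5 and 31.2 CPM in INPUT and 110, 126, 96.6 and 99.2 in IP. Every IP library was above every INPUT library, and the log2 fold change was 1.98 ± 0.07 (SE, edgeR adjusted p = 6.11e-17). Antisense gene Gm12868 shares 105 exon bases with Slc2a1 on the opposite strand, and no source used here says whether counting used strand.

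The neuronal carrier gene went the other way. Slc2a3 (ENSMUSG00000003153, chromosome 6, 122727809 to 122801640) had 44.0, 40.8, 39.3 and 42.1 CPM in CD INPUT and 16.3, 14.7, 14.9 and 15.7 in CD IP. The log2 fold change over both diets was -1.48 ± 0.06 (SE, edgeR adjusted p = 1.76e-17), and IP was lower in all 8 pools. All 16 neuronal marker genes were called lower in IP as well, and their sum went from 11900 to 13200 CPM in CD INPUT to 5010 to 5410 in CD IP. The myo-inositol carrier gene Slc2a13 (ENSMUSG00000036298, chromosome 15, 91267696 to 91573261) moved like Slc2a3, from 63.1, 64.9, 60.6 and 66.3 CPM in CD INPUT to 18, 16.3, 15.9 and 18.5 in CD IP, with a log2 fold change of -1.91 ± 0.05 (SE, edgeR adjusted p = 2.52e-21). Slc2a6 (ENSMUSG00000036067, chromosome 2, 27021363 to 27027998) was scarce in both fractions, with 1.90 to 2.47 CPM in CD INPUT and 0.863 to 1.13 in CD IP, and was lower by -1.22 ± 0.14 (SE, edgeR adjusted p = 1.59e-08). Over both diets, edgeR called 83.7 percent of all genes tested in either direction. Slc2a3, Slc2a13 and Slc2a6 did not overlap between the fractions in the CD pools. How many of all genes part in that way was not counted, for these or any other member. The part that neuronal RNA plays in these differences was not tested.

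A pair of scarce members had larger estimates than Slc2a1, a difference that was not itself tested. Slc2a4 (ENSMUSG00000018566, chromosome 11, 69942539 to 69948188) had 1.83, 2.72, 3.66 and 2.87 CPM in CD IP and 0.146, 0.322, 0.710 and 0.0781 in CD INPUT, where these levels rest on 3 to 22 counts a library. Its log2 fold change was 2.76 ± 0.28 (SE, edgeR adjusted p = 4e-09), the largest estimate among the 8, and its ratio of IP to INPUT ranged from 3.85 to 36.7 over the 8 pools. That wide span shows how little the INPUT counts of Slc2a4 fix its enrichment. Slc2a10 (ENSMUSG00000027661, chromosome 2, 165503787 to 165519917), whose human counterpart is mutated in a disorder of tortuous arteries, had 4.46, 5.04, 6.34 and 4.88 CPM in CD IP against 0.909, 1.03, 0.613 and 1.12 in CD INPUT. Its log2 fold change was 2.47 ± 0.13 (SE, edgeR adjusted p = 3.45e-15), with no overlap between fractions.

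Slc2a12 (ENSMUSG00000037490, chromosome 10, 22645011 to 22704285) rose from 1.94 to 2.84 CPM in CD INPUT to 6 to 7.97 in CD IP, a log2 fold change of 1.45 ± 0.13 (SE, edgeR adjusted p = 1.09e-10). It shares 407 exon bases with Tbpl1 on the opposite strand. Slc2a8 (ENSMUSG00000026791, chromosome 2, 32972990 to 32982083) changed least, from 2.44, 2.02, 2.20 and 3.33 CPM in CD INPUT to 4.09, 4.31, 4.51 and 4.06 in CD IP, with a log2 fold change of 0.62 ± 0.11 (SE, edgeR adjusted p = 1.18e-05). All 8 calls held in every alternative run, including the CD and the HFD pools fitted apart. Scaling by library totals alone moved the median of all genes from -0.018 to 0.22 and raised the share of higher calls among all calls from 49.7 to 60.2 percent. Under that scaling Slc2a1 stood at 2.22 and Slc2a8 at 0.87, with no direction changed among the 8.

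**Figure D2:**
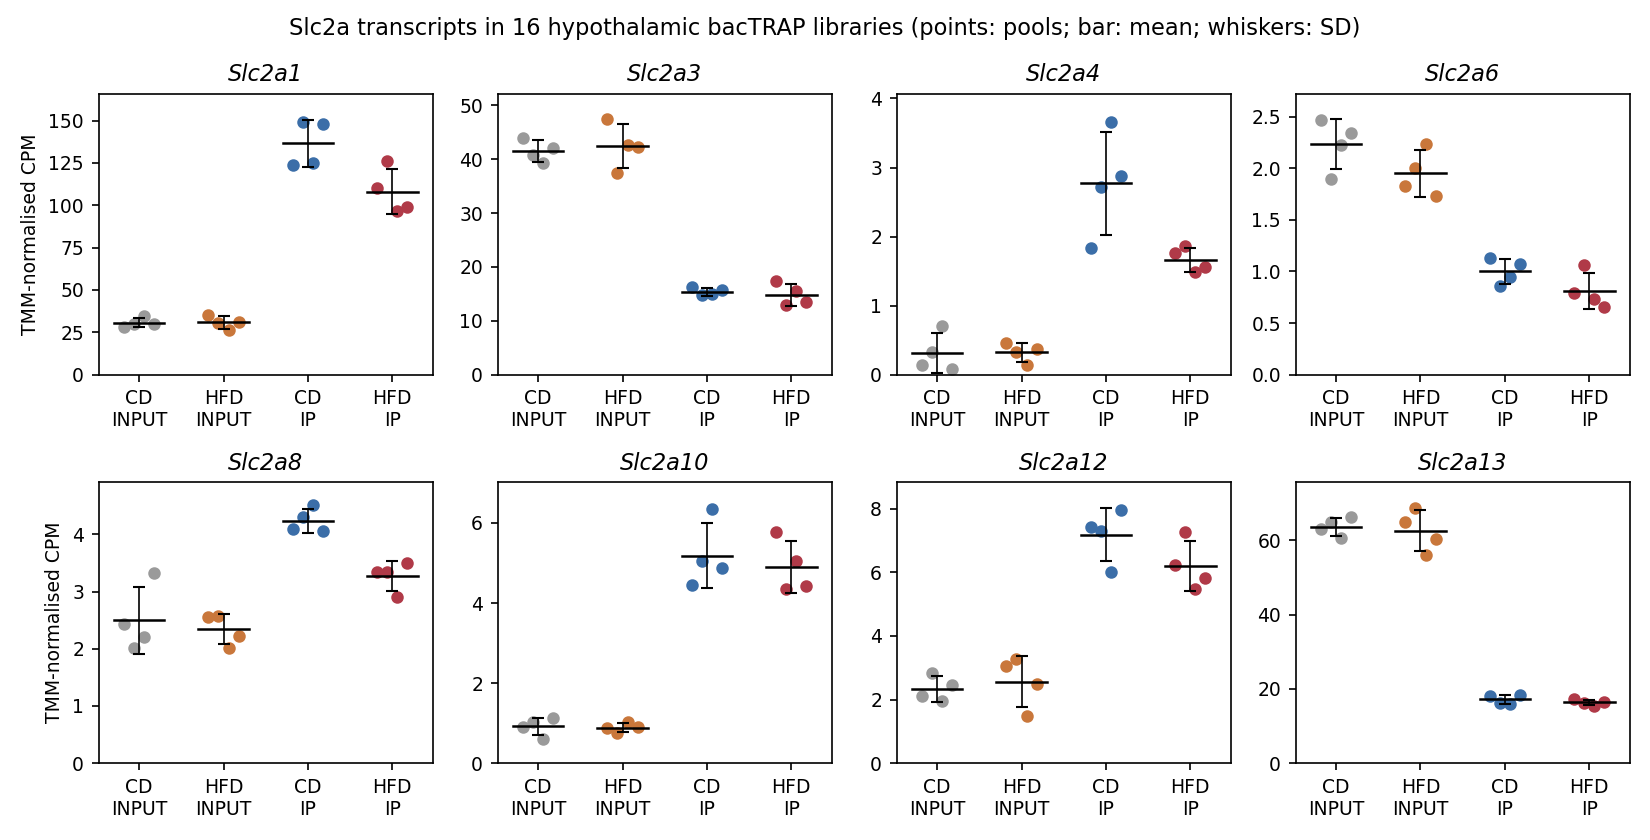
Each point is the TMM-normalised CPM (y axis, from 0) of 1 library, in 8 panels for the members, by diet and fraction (x axis); bars give means and whiskers SD over 4 pools. Slc2a1, Slc2a4, Slc2a10 and Slc2a12 sit higher in IP, and Slc2a3, Slc2a6 and Slc2a13 higher in INPUT.

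Of the 4 other Slc2a genes, Slc2a9, which carries urate, was higher in IP (log2 fold change 0.73 ± 0.13, SE, edgeR adjusted p = 1.35e-05) and rested on 38 to 135 counts a library. Slc2a5, the fructose carrier Glut5, was lower (-1.72 ± 0.22, SE, edgeR adjusted p = 7.84e-08) at 6 to 47 counts. Slc2a2 had 0 to 10 counts and Slc2a7 had 0 in all 16, and neither passed the filter on low counts.

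Genes around the carriers went both ways between the fractions, where 41.6 percent of all genes were called higher and 42.1 percent lower, and the counts below are to be read against those shares. Of 11 tested sugar carriers outside the family, 2 were higher and 5 lower, with a median log2 fold change of -0.42 against -0.018 over all genes. Slc5a11, a sodium-coupled myo-inositol carrier, was higher by 1.80 ± 0.25 (SE), and Slc37a4, the glucose-6-phosphate carrier of the endoplasmic reticulum, by 1.23 ± 0.095, while Slc45a4, a proton-coupled sugar carrier, was lower by -1.01 ± 0.056 (SE). Of 11 tested genes of glucose phosphorylation and glucose-6-phosphate use, 6 were higher and 4 lower (median 0.15). Among hexokinases, which trap glucose that has entered a cell, Hk1 was higher by 0.29 ± 0.053 and Hk2 lower by -1.54 ± 0.078, and the phosphoglucomutase gene Pgm1 was higher by 1.68 ± 0.062 (SE). Of 28 genes for trafficking and turnover of Glut proteins, 16 were higher and 10 lower (median 0.20). Rab13, a small GTPase of vesicle traffic, was higher by 2.43 ± 0.067, Stom, a membrane protein that binds Glut1, by 2.42 ± 0.082 and the kinase gene Akt2 by 2.22 ± 0.059, whereas the AMP-kinase subunit gene Prkaa2 was lower by -1.43 ± 0.049 (SE).

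High-fat feeding for 3 days did not bring any member past the threshold in IP. All 8 estimates were below 0, with a median of -0.25 against 0.0015 over all genes, while 0.0504 percent of the 15858 genes tested were called lower and 0.0378 percent higher. At an unadjusted p under 0.05, 3 members stood out (Slc2a1, Slc2a4 and Slc2a8) and 1831 genes in all. A share of 0 members called is near that background and sets nothing apart.

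The largest of these by count was Slc2a1, with 124, 149, 125 and 148 CPM in CD IP and 110, 126, 96.6 and 99.2 in HFD IP. Of the HFD pools, 3 were below all CD pools, while HFD pool 2 lay above CD pools 1 and 3. Means were 136 ± 13.8 and 108 ± 13.5 CPM (SD, n = 4 pools each), and the log2 fold change was -0.32 ± 0.088 (SE, edgeR adjusted p = 0.161). The call depended on the method. DESeq2 gave -0.32 with an adjusted p of 0.0466 where it called 1.26 percent of genes, edgeR without a filter on low counts gave -0.33 with an adjusted p of 0.00241 where it called 1.5 percent, and leaving out HFD IP pool 2 gave -0.41 with an adjusted p of 0.0428 in edgeR. Over 15 alternatives the estimate for Slc2a1 lay between -0.41 and -0.27 and its adjusted p between 0.00241 and 0.452.

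Slc2a4 had 1.83, 2.72, 3.66 and 2.87 CPM in CD IP and 1.76, 1.86, 1.48 and 1.56 in HFD IP. Only CD pool 1 lay within the HFD range, the log2 fold change was -0.72 ± 0.20 (SE, edgeR adjusted p = 0.168), and libraries held 56 to 120 counts. Without the filter on low counts its edgeR adjusted p was 0.0379. Slc2a8 had 4.09, 4.31, 4.51 and 4.06 CPM in CD IP and 3.35, 3.35, 2.9 and 3.5 in HFD IP. Its log2 fold change of -0.36 ± 0.13 had an adjusted p of 0.298 (edgeR, SE). The groups of Slc2a8 did not overlap, but how many of all genes part in that way was not counted, so this sets Slc2a8 apart from nothing. Slc2a12 went from 7.18 ± 0.835 to 6.20 ± 0.776 CPM (SD, n = 4 pools each), a log2 fold change of -0.20 ± 0.12 (SE, edgeR adjusted p = 0.575), and its groups overlapped.

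The other 4 members stayed close to 0 or were imprecise. Slc2a3 had 15.4 ± 0.723 CPM in CD IP and 14.8 ± 1.97 in HFD IP (SD, n = 4 pools each, log2 fold change -0.037 ± 0.096, SE), and Slc2a13 had 17.2 ± 1.28 and 16.3 ± 0.677 (-0.052 ± 0.083). Slc2a10 had 5.18 ± 0.81 and 4.90 ± 0.659 CPM (-0.06 ± 0.14). Slc2a6 differed by -0.29 ± 0.26 at 28 to 38 counts a library, too few to show a difference of that size. The share of the per-kilobase sum of the 8 members taken by Slc2a1 was 79.9 ± 1.62 percent for CD IP against 78.1 ± 1.8 for HFD IP (SD, n = 4 pools each). The sum itself, Slc2a1 included, was 48.7 ± 3.96 against 39.4 ± 4.08 CPM per kb. Astrocyte marker sums in IP were 19200 to 22000 CPM with CD and 17000 to 19400 with HFD, and only HFD pool 2 reached the CD range. Of the 10 astrocyte estimates 7 were negative (median -0.099). Endothelial sums were 197 to 297 and 224 to 285 CPM (12 of 18 negative, median -0.063), and neuronal ones 5010 to 5410 and 4460 to 6020 CPM (13 of 16, -0.081). Oligodendrocyte markers summed to 674 to 752 and 620 to 723 CPM (8 of 10 estimates negative, median -0.28), and microglial ones to 27.9 to 37.4 and 27.5 to 32.6 CPM (7 of 12 negative, median -0.18). Tanycyte and ependymal, pericyte and smooth muscle, and choroid plexus lists had 4 of 8, 4 of 9 and 4 of 7 negative. None of the genes on these lists was called by edgeR. The part of these sums in the values of Slc2a1 was not tested.

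In whole hypothalamus the members showed less. None of the 8 was called in INPUT, none had an unadjusted p under 0.05, and edgeR adjusted p-values were 0.833 or above. There 0.0237 percent of the 16879 genes tested were called higher and 0.0118 percent lower, 0.0355 percent or 6 genes in all, against 43 (0.255 percent) with the pool number as a block, where again no member was called. Slc2a1 had means of 30.7 ± 2.83 and 30.9 ± 3.7 CPM in CD and HFD INPUT (SD, n = 4 pools each), a log2 fold change of 0.0054 ± 0.085 (SE). Slc2a3 differed by 0.033 ± 0.067 and Slc2a13 by -0.028 ± 0.061, so for these 3 well-counted genes the SE was below 0.1. For Slc2a4, with 3 to 22 counts a library, the SE of 0.56 leaves a change of the size seen in IP undetectable in INPUT.

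**Figure D3:**
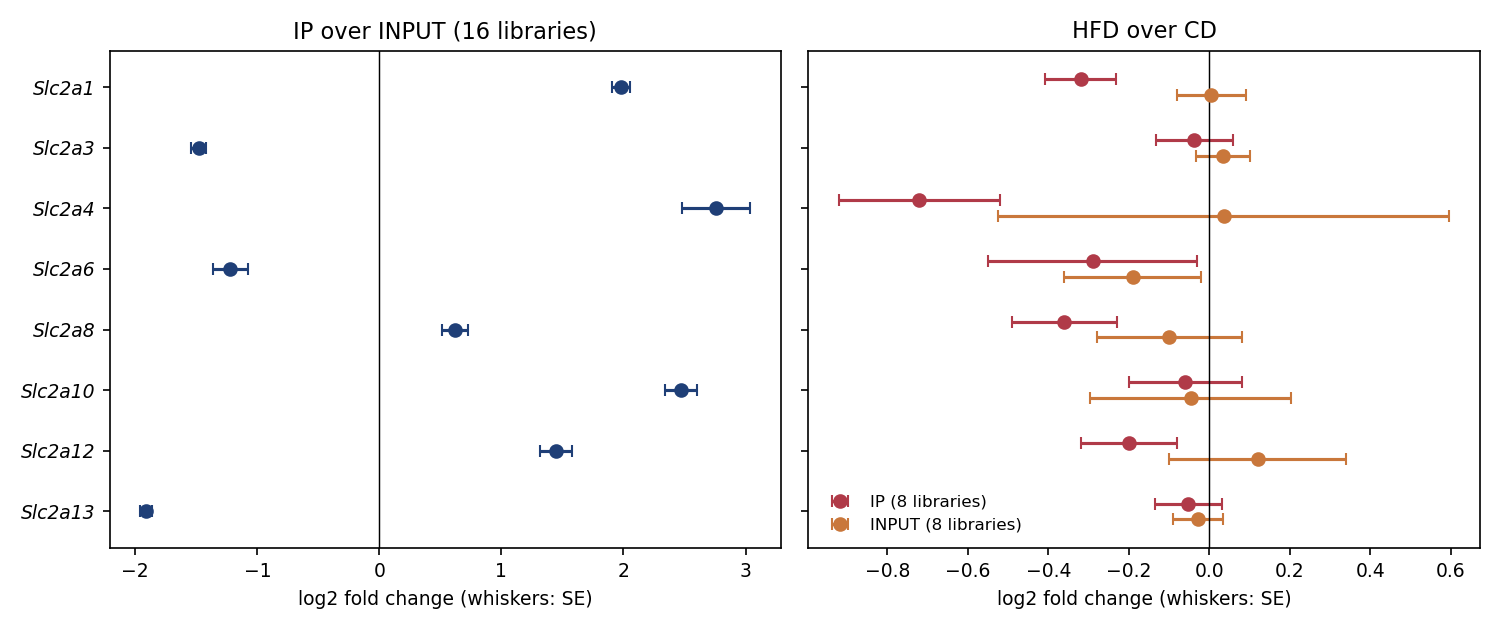
Points are edgeR log2 fold changes of the 8 members (rows) with SE whiskers on the x axis, for IP over INPUT in the left panel and HFD over CD in the right panel, in IP and in INPUT. The diet estimates in IP all lie below 0, from -0.037 for Slc2a3 to -0.72 for Slc2a4, and none passed the adjusted p threshold.

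Whether the diet difference itself differed between IP and INPUT was tested as an interaction over the 16 libraries. No gene was called (0 percent of 17592 genes by edgeR, with 755 at an unadjusted p under 0.05 and 4 called by DESeq2), and so no member was. The interaction for Slc2a1 was -0.34 ± 0.14 on the log2 scale (SE, unadjusted p = 0.0193, edgeR adjusted p = 1), the single member with an unadjusted p under 0.05. With the number as a block its edgeR adjusted p was 0.622, where 1 gene was called in all. The 18 endothelial markers had a median interaction of -0.33, with 16 of 18 negative and none called. In INPUT their median diet difference was 0.26, with 14 of 17 tested positive. Negative interactions also prevailed for neuronal (15 of 16, median -0.088), oligodendrocyte (9 of 10, -0.19), microglial (9 of 12, -0.26) and pericyte and smooth muscle markers (8 of 12, -0.16). Astrocyte (5 of 10), tanycyte and ependymal (4 of 8) and choroid plexus markers (4 of 7) were near evenly split. The part of these marker differences in the value of Slc2a1 was not tested. For Slc2a4 the interaction was -0.77 ± 0.58 and for Slc2a8 -0.27 ± 0.22 (SE). A diet effect on any of the 8 that is particular to ribosome-bound RNA was therefore not shown. The 3 lists around the carriers had no called gene in either diet comparison by edgeR.

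In cEND cells the family was again led by Slc2a1, but with other genes behind it. With DMSO, Slc2a1 took 75.8 ± 2.76 percent of the per-kilobase sum of the 8 members, Slc2a10 13 ± 0.296, Slc2a8 5.6 ± 0.944, Slc2a6 4.08 ± 2.33 and Slc2a3 1.43 ± 0.608 percent (SD, n = 3 passages). Slc2a8 and Slc2a6 overlapped in that order, and the other neighbours among these 5 did not. The remaining members were at or near the detection limit. Slc2a13, abundant in hypothalamic INPUT, had 0 counts in all 9 libraries, Slc2a12 had 0 to 2 and Slc2a4 0 to 6 counts, where 3 counts correspond to 0.0731 to 0.106 CPM. Thus 5 of 8 members could be tested in cEND cells. Among the others, Slc2a9, which is not part of that sum, reached 27.3 ± 3.54 CPM with DMSO (SD, n = 3 passages), above Slc2a10 at 14.8 ± 2.45. Per kilobase Slc2a9 was also above Slc2a10, at 5.37 against 4.14 CPM per kb, and no dose comparison called Slc2a9. Between passages Slc2a9 was lower at 14 than at 12 (-0.38 ± 0.078, SE, edgeR adjusted p = 0.000619) and higher at 18 than at 14 (0.33 ± 0.077, edgeR adjusted p = 0.00129). Slc2a2 had 3 to 20 counts, Slc2a5 had 0 to 1 and Slc2a7 had 0.

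At 10 µM WZB117 the transcript of the inhibitor's target rose. Slc2a1 had 70.8, 99.6 and 83.7 CPM with DMSO at passages 12, 14 and 18, against 369, 323 and 267 at 10 µM. The groups were far apart, and the ratio within a passage was 5.21, 3.24 and 3.19 in the same order. The log2 fold change was 1.92 ± 0.19 (SE, edgeR adjusted p = 0.00309), rank 11 by p among 15466 genes, of which 0.853 percent were called higher and 0.42 percent lower. Against the 0.5 µM libraries it was 1.91 ± 0.19 (SE, edgeR adjusted p = 0.00395), where 0.86 percent of genes were called higher and 0.414 percent lower. These dose comparisons share the 10 µM libraries. Slc2a1 took 90.5 ± 2.51 percent of the per-kilobase family sum at 10 µM (SD, n = 3 passages), and the sum itself went from 31.8 ± 5.12 to 100 ± 13.3 CPM per kb.

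The lower dose left no such mark. At 0.5 µM, Slc2a1 had 72.0, 105 and 77.7 CPM at passages 12, 14 and 18, inside the span of DMSO apart from passage 14, and the log2 fold change was 0.0039 ± 0.18 (SE, edgeR adjusted p = 1). No member and no gene was called at that dose (0 percent of 15466 genes by edgeR, 0 by DESeq2, 55 at an unadjusted p under 0.05). The other tested members differed from DMSO by 0.048 for Slc2a10 to 0.17 for Slc2a6, with SE of 0.19 to 0.49. Each of these estimates was below its own SE, so changes of that size were not detectable.

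Slc2a8 was next to respond at 10 µM, and its call rests on the pairing by passage. It had 4.30, 5.85 and 7.04 CPM with DMSO at passages 12, 14 and 18, 5.49, 6.72 and 7.04 at 0.5 µM, and 8.85, 7.48 and 9.60 at 10 µM. Each passage was higher at 10 µM than with DMSO, by 2.06, 1.28 and 1.36 times. Without a passage term the log2 fold change was 0.59 ± 0.20 (SE, edgeR adjusted p = 0.275), and with passage as a block it was 0.61 ± 0.14 (SE, edgeR adjusted p = 0.00288). Against 0.5 µM the blocked value was 0.43 with an edgeR adjusted p of 0.0307. The block raised the calls over all genes from 197 (1.27 percent) to 2864 (18.5 percent, 9.23 percent higher and 9.29 percent lower) against DMSO. Against 0.5 µM it gave 2759 (17.8 percent, 9.28 percent higher and 8.55 percent lower), so a call of Slc2a8 is less rare there than the call of Slc2a1 without it.

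The other 3 tested members were not called at 10 µM with or without the block. Slc2a10 had 12.3, 17.2 and 14.9 CPM with DMSO at passages 12, 14 and 18 and 13.4, 19.1 and 17.4 at 10 µM, a log2 fold change of 0.17 ± 0.19 (SE), higher in 3 of 3 passages. Slc2a6 differed by 0.27 ± 0.49 and Slc2a3 by -0.39 ± 0.28 (SE), with Slc2a3 lower in 2 of 3 passages. These intervals do not show that the 3 genes were unaffected. Of the 17 tested endothelial markers none was called at 10 µM without the block (edgeR). With it 3 were higher and 2 lower, where 9.23 percent of all genes were higher and 9.29 percent lower. The endothelial marker sum was 6570 to 8560 CPM against 6290 to 8260 with DMSO.

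**Figure D4:**
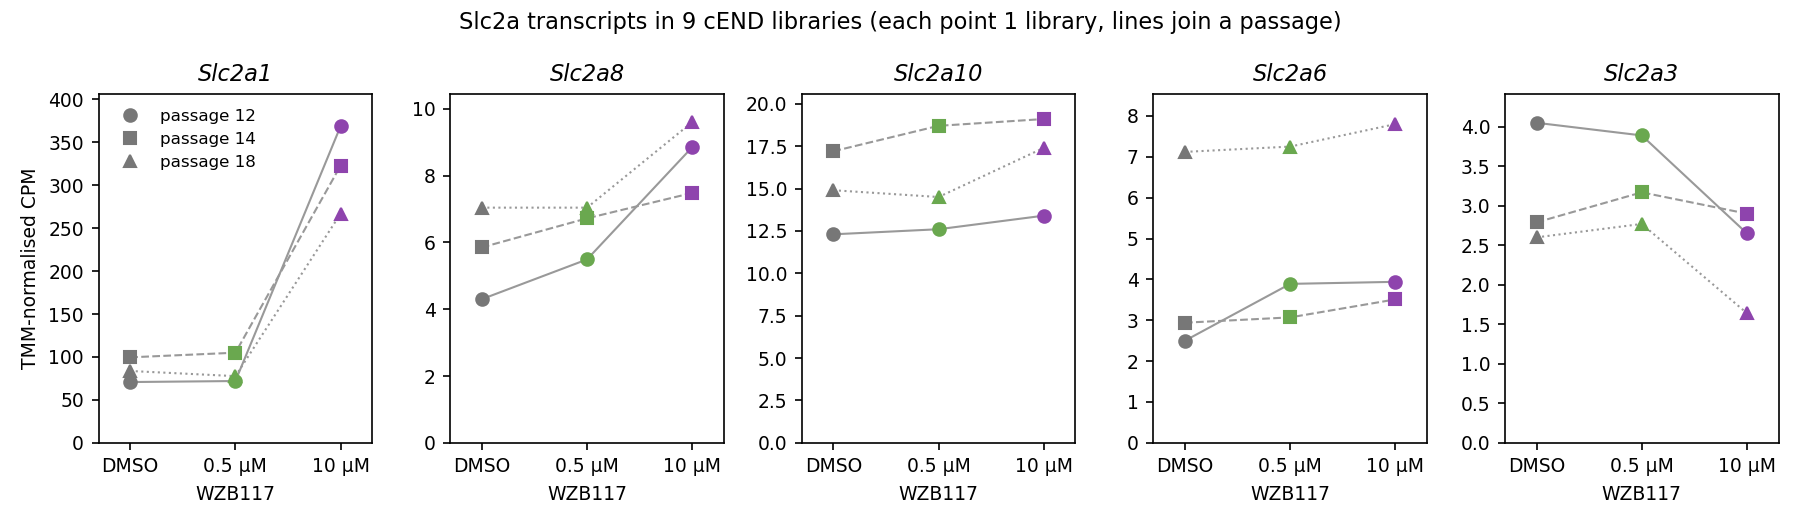
Each point is the TMM-normalised CPM (y axis, from 0) of 1 cEND library by treatment (x axis) in panels for the 5 tested members, with markers and lines for passages 12, 14 and 18. Slc2a1 runs from 70.8 to 105 CPM with DMSO or 0.5 µM and from 267 to 369 at 10 µM, while Slc2a6 is parted by passage 18.

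Some genes that act on glucose after uptake were also higher at 10 µM. Of 9 tested genes of glucose phosphorylation and glucose-6-phosphate use, 3 were higher at 10 µM than with DMSO and 0 lower by edgeR, where 0.853 percent of all genes were higher, with a median log2 fold change of 0.38 against -0.013 over all genes. Pgm1, which interconverts glucose phosphates, rose by 1.45 ± 0.13 (SE, edgeR adjusted p = 0.00245), the hexokinase gene Hk1 by 0.73 ± 0.10 (0.0128) and the phosphoglucose isomerase gene Gpi1 by 0.53 ± 0.086 (0.0202). With passage as a block, where 9.23 percent of all genes were higher, 6 of 9 were, Hk2 among them at 1.32 ± 0.068 (SE, edgeR adjusted p = 3.19e-13). None of the 9 tested sugar carriers outside the family and none of the 28 trafficking genes was called without the block (edgeR). Adpgk, G6pc3 and Pgm2 were called in neither model. With the block 1 carrier was higher and 1 lower of 9, and 2 of 28 trafficking genes were higher, counts near the all-gene shares of 9.23 percent higher and 9.29 percent lower.

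Slc2a6 and Slc2a10, which no dose comparison called, differed between passages. Each passage had 1 library of each treatment and was itself sampled once, so passage cannot be told apart from the culture or day it came from. Passages were compared with treatment in the model, where 21.6 percent of genes were called between passages 14 and 12, 35.1 percent between 18 and 12 and 33.1 percent between 18 and 14. These 3 comparisons share libraries. Slc2a6 had 2.50, 3.89 and 3.94 CPM at passage 12 with DMSO, 0.5 µM and 10 µM, 2.94, 3.07 and 3.51 at passage 14, and 7.12, 7.25 and 7.80 at passage 18. All passage 18 libraries were above all others, with log2 fold changes of 1.11 ± 0.16 over passage 12 (SE, edgeR adjusted p = 5.09e-06) and 1.23 ± 0.16 over passage 14 (SE, edgeR adjusted p = 1.03e-06), and these calls held in all 15 alternatives of each. Passage 18 against 12 called 15.9 percent of genes higher and 19.2 percent lower. Of 17 tested endothelial markers, 15 were higher as well (median 0.32), and the part of that shift in Slc2a6 was not tested.

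Slc2a10 was highest at passage 14, with 17.2, 18.7 and 19.1 CPM for DMSO, 0.5 µM and 10 µM against 12.3, 12.6 and 13.4 at passage 12 (log2 fold change 0.52 ± 0.092, SE, edgeR adjusted p = 9.37e-05, called in all 15 alternatives), where 10.1 percent of genes were called higher. At passage 18 it lay between them, with 14.9, 14.5 and 17.4 CPM, called higher than passage 12 (0.29 ± 0.092, edgeR adjusted p = 0.0161) and lower than passage 14 (-0.24 ± 0.09, edgeR adjusted p = 0.044). The call against passage 14 was lost in 11 of 15 alternatives and the call against passage 12 in 4 of 15. Slc2a3 was lower at passage 18 than 12 (-0.60 ± 0.20, SE, edgeR adjusted p = 0.0207), a call lost in 5 of 15 alternatives, and Slc2a8 was higher (0.37 ± 0.14, edgeR adjusted p = 0.0436), lost in 9 of 15. Several single libraries decided these calls. Between passages 18 and 12, Slc2a3 lost its call without the DMSO library of passage 12 or 18, the 0.5 µM library of passage 12 or the 10 µM library of passage 18, and its edgeR adjusted p reached 0.139. Slc2a8 lost its call without any of these or without the 0.5 µM library of passage 14 or 18. For Slc2a10 it was the 10 µM library of passage 12 or 18, with an edgeR adjusted p of up to 0.0854. Against passage 14, Slc2a10 kept its call only when the 10 µM library of passage 12 or 18 was the one left out.

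Slc2a1 was not called between any pair of passages in the full fit, with log2 fold changes of 0.26 ± 0.18 for 14 over 12, -0.058 ± 0.18 for 18 over 12 and -0.32 ± 0.18 for 18 over 14 (SE). Its response to 10 µM was largest at passage 12, and that library weighs on these estimates. Without it, Slc2a1 was called higher at passage 14 than 12 (0.51 ± 0.069, SE, edgeR adjusted p = 6.56e-06), higher at 18 than 12 (0.19, edgeR adjusted p = 0.0419) and lower at 18 than 14 (-0.32 ± 0.058, edgeR adjusted p = 0.000113). Of the lists around the carriers, the trafficking genes had 6 higher and 10 lower of 28 between passages 18 and 12, where 15.9 percent of all genes were higher and 19.2 percent lower. Txnip, whose product draws Glut1 from the cell surface, was higher by 0.63 ± 0.066 and its relative Arrdc4 lower by -1.39 ± 0.14, while Hk2 was lower by -1.38 ± 0.069 (SE).

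The genes whose level followed that of Slc2a1 most closely were found by Pearson correlation of log2 CPM, as a description with no test, since libraries share treatment, passage and scaling. Over the 9 cEND libraries they were Pgm1 (r = 0.997), Zfand2a (0.996), Mxi1 (0.995), Pvr (0.993) and Bnip3 (0.993) of 10601 genes. Over the 8 IP libraries they were Cdh19 (r = 0.978), Kcnn2 (0.972), Kank3 (0.961), Slitrk2 (0.960) and Chst11 (0.960) of 11890 genes. No gene stood in both sets of 5, which would nearly always hold for sets so small drawn from so many genes and shows nothing about Slc2a1. Among the members, Slc2a12 followed Slc2a1 most closely over the IP libraries (r = 0.85) and Slc2a8 over the cEND libraries (r = 0.77), while Slc2a3 stood at -0.064 and -0.57.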

How the data were processed

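The authors deposited 1 table of estimated counts per Ensembl gene for the hypothalamic libraries and 1 for the cEND libraries, not scaled to a common total, in which 17.3 and 19.8 percent of values were not whole. The labels name build GRCm38. The counting program, annotation release, strandedness, diet composition and treatment time are not stated by any source used here. Counts were rounded, TMM-normalised and fitted with edgeR 4.0.16 in R 4.3.3 (robust quasi-likelihood, filterByExpr), with 2-sided tests adjusted over all genes tested. DESeq2 1.42.0, other scalings, no filter, blocks and leaving out each library were alternatives. Symbols, coordinates and exon lengths come from GENCODE M21 by Ensembl identifier, and 45143 and 44118 identifiers matched. No libraries of a group agreed within sampling noise (lowest chi-square per degree of freedom 8.46). Fits of some comparisons were also run on simulated counts, with no spread between passages or pools beyond the changes put in. No result here rests on that run.

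Members, lists and tests were chosen with earlier results of these data known. All 8 members were looked up in each comparison. Not every estimate is printed for diet in INPUT, the interaction, the doses and the passages, and no member left out there was called in the main fit. Of each list at most 4 called genes with the smallest p are named per comparison (Slc5a11 and, between fractions, Hk1 were named outside that rule after their values were seen), and the 5 genes most like Slc2a1 by r.

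cEND passages pair the libraries by their labels (correlation of same-passage deviations 0.38 to 0.57). In all 4 pairs of CD and HFD INPUT, equal numbers correlated more (0.16 to 0.25) than any unequal numbers (up to 0.14). The same held for CD INPUT and CD IP (0.11 to 0.28, unequal up to 0.04). Equal and unequal numbers overlapped for HFD INPUT and HFD IP (0.028 to 0.25, unequal up to 0.088). They also overlapped for CD and HFD IP (0.03 to 0.054, unequal up to 0.061). Blocked values are given where they changed the call of a member, and for some but not all of the counts over lists and over all genes.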

Additional observations from a re-analysis of the deposited data

Results flagged for a closer look

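Over 76 groups of 4 libraries (44 of Slc2a gene levels and 32 of marker sums), 5 values stood far from the other 3 by Dixon's test. Chance flags about 1 in 20 groups, so 5 of 76 is near what chance gives. Slc2a9 had 1.91 CPM in HFD INPUT pool 4, with the nearest pool at 1.55 and the lowest at 1.48. Summed endothelial markers were 197 CPM in CD IP pool 3, against 288 to 297 in the other pools. In that pool Slc2a1 stood at 125 CPM, within the range of the other CD IP pools. Summed neuronal markers were 5010 CPM in CD IP pool 1, against 5350 to 5410 in the others. Tanycyte and ependymal markers summed to 30.7 CPM in CD INPUT pool 4, against 28.3 to 28.5 in the others. Choroid plexus markers summed to 187 CPM in HFD IP pool 4, against 114 to 127 in the others. None of the 8 members had such a library in their 32 groups.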

How the results depend on the processing

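Over single members, 986 alternative values kept direction and call, 46 changed sign, 8 gained a call with the same sign and 29 lost one. Of those that changed sign, 1 was also called, Slc2a1 at passage 18 over 12 without 10 µM passage 12. The causes were not tested. No IP over INPUT call of the 8 members changed in any alternative run. For diet in IP, 0 members were called lower, against 2 with no filter, 1 with DESeq2 and 0 to 1 leaving out 1 library. Between passages 18 and 12, 3 higher calls became 1 by library totals and 1 to 3 leaving out 1 library, and the 1 lower call became 0 to 1. Between 18 and 14 the 1 lower call became 0 with RLE, no filter or DESeq2, and 0 to 2 leaving out 1 library, and between 14 and 12 the 1 higher call became 1 to 2.

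Passages pair the cEND libraries. With the replicate block, 2 members were called higher at 10 µM against either group, not 1, and Slc2a1 at 0.5 µM stood at -0.0028. Comparing passages with no treatment term, that is with no replicate block, gave 1 higher and 0 lower for 18 over 12 and 0 lower for 18 over 14. The block changed no other member call, and with it 52 genes (0.328 percent) were called for diet in IP.

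Log2 fold changes near 0 changed sign. By library totals, diet in INPUT gave 0.0044 for Slc2a10 and 0.011 for Slc2a13. Leaving out 1 library gave, for diet in IP, -0.12 to 0.016 for Slc2a3 and -0.15 to 0.047 for Slc2a10. In INPUT it gave -0.067 to 0.071 for Slc2a1, -0.024 to 0.088 for Slc2a3, -0.32 to 0.8 for Slc2a4, -0.19 to 0.079 for Slc2a8, -0.19 to 0.07 for Slc2a10, -0.02 to 0.31 for Slc2a12 and -0.077 to 0.017 for Slc2a13. For the interaction it gave -0.15 to 0.12 for Slc2a10 and -0.077 to 0.023 for Slc2a13. At 0.5 µM it gave -0.17 to 0.14 for Slc2a1, -0.076 to 0.28 for Slc2a3, -0.28 to 0.8 for Slc2a6, -0.0037 to 0.34 for Slc2a8 and -0.12 to 0.17 for Slc2a10. For Slc2a6 at 10 µM it gave -0.18 to 0.91 against DMSO and -0.35 to 0.55 against 0.5 µM, and for Slc2a1 at passage 18 over 12 it gave -0.17 to 0.19.

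Genes called over the whole table ranged over alternatives from 12920 to 17239 for IP over INPUT, 5 (without CD IP pool 4) to 398 (no filter) for diet in IP, 2 to 116 for diet in INPUT and 0 to 4 for the interaction. They ranged from 38 (without DMSO passage 12) to 2864 (replicate block) for 10 µM against DMSO, 33 (without 10 µM passage 12) to 2759 (replicate block) against 0.5 µM, 1623 to 3668 for passage 14 over 12, 3269 to 5937 for 18 over 12 and 2924 to 5402 for 18 over 14. By library totals, the higher share of diet calls was 67.4 percent in IP (42.9 otherwise) and 83.3 percent in INPUT (66.7), and of passage calls 36.2 percent for 14 over 12 (46.7) and 32.4 percent for 18 over 12 (45.4). Counts of 3 to 22 in INPUT limit Slc2a4.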
